A study of Oryctolagus cuniculus with 20 samples.

Results

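The genes described here are the 37 consecutive gene identifiers from ENSOCUG00000029081 to ENSOCUG00000029117 in a rabbit RNA-seq count table, a block that holds the transcripts of the mitochondrial genome. Members were taken by this range of identifiers, which was picked because it holds the 2 most abundant unnamed genes of the table, and they are 37 of 23669 genes. The study annotation gives 13 of them a symbol, and in the order of the identifiers these are ND1, ND2, COX1, COX2, ATP8, ATP6, COX3, ND3, ND4L, ND4, ND5, ND6 and CYTB. The other 24 identifiers are unnamed in the sources used here. Of these, ENSOCUG00000029084 and ENSOCUG00000029082 took most of the counts of the block, and they are called the 2 abundant unnamed genes below. The remaining 22 unnamed genes together took at most 0.0130% of the counts of any valve.

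The mammalian mitochondrial genome is a small circular DNA that carries 13 protein-coding genes, 2 ribosomal RNA genes and 22 transfer RNA genes. Its proteins are core subunits of the respiratory chain and of ATP synthase, and their other subunits are encoded in the nucleus. Both strands are transcribed as long precursors that are cut into single RNAs, and ND6 is the protein-coding gene whose RNA is read from the opposite strand to the rest. Cardiac muscle cells, which beat without pause, are among the cells richest in mitochondria.

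The samples were tricuspid valves, dissected separately from 20 adult female New Zealand white rabbits, 5 in each of 4 groups. Treatment was oral, in the drinking water, for 16 weeks. Non-treated rabbits received water. The others received serotonin at 80 mg/kg/day, pergolide at 0.5 mg/kg/day or dexfenfluramine at 20 mg/kg/day, doses taken from the sample labels. The study's text is not uniform on the dexfenfluramine dose. Serotonin is a monoamine that acts on valve cells through its receptors, pergolide is an ergot-derived dopamine agonist and dexfenfluramine is an anorectic amphetamine derivative. The question was how these agents, which are tied to valvular heart disease, alter the RNA profile of the valve. Ribosomal RNA was depleted before the libraries were made, so the counts on ribosomal transcripts are what depletion left. Whether the abundant unnamed genes are ribosomal transcripts was not tested, and how far depletion went in each library was not measured. If they are, their counts also depend on depletion, and a change in expression cannot be told apart from it. That limit applies to every share, level and ratio below that includes them.

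Total counts ranged from 3247091 to 5921025 per valve. Genes were compared in CPM, the usual measure of counts relative to library size, with library sizes scaled by TMM, and a gene was called at an adjusted p under 0.05 by the quasi-likelihood test of edgeR, fitted to the 20 valves together and adjusted over the 8683 genes that passed the filter on low counts. In all, 26 of the 37 genes passed it: the 13 named genes, the 2 abundant unnamed genes and 11 of the other 22. The cardiomyocyte marker genes were present in these valves, with all 16 detected of those that carry a symbol, and so were the 11 genes of valvular interstitial cells and matrix. In bulk tissue, fewer cells of a type and less RNA per cell cannot be told apart. Non-treated valve 3 and dexfenfluramine valve 3 had the smallest share of counts on the block in their groups. Leaving both out is therefore a choice made with the outcome known, and the counts of called members are given without them as well.

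The block took 25.0% to 63.2% of all counts of a valve. Non-treated valves 1 to 5 had 58.6, 53.2, 38.1, 63.2 and 56.4% of their counts on the 37 genes, a mean of 53.9 ± 9.55% (SD, n = 5). After serotonin the shares were 43.4, 60.7, 49.8, 55.8 and 47.8%, with a mean of 51.5 ± 6.81% (SD, n = 5). Pergolide valves had 43.5, 46.3, 46.9, 38.2 and 39.2% (mean 42.8 ± 4.0%, SD, n = 5). All pergolide valves lay below 4 of the 5 non-treated valves and above non-treated valve 3, and the serotonin valves lay within the non-treated range. Dexfenfluramine valves had 40.8, 34.8, 25.0, 38.8 and 44.6% (mean 36.8 ± 7.50%, SD, n = 5). Of the dexfenfluramine valves, numbers 2 and 3 lay below every non-treated valve. Sums over the block are given as a description, without a test.

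**Figure D1:**
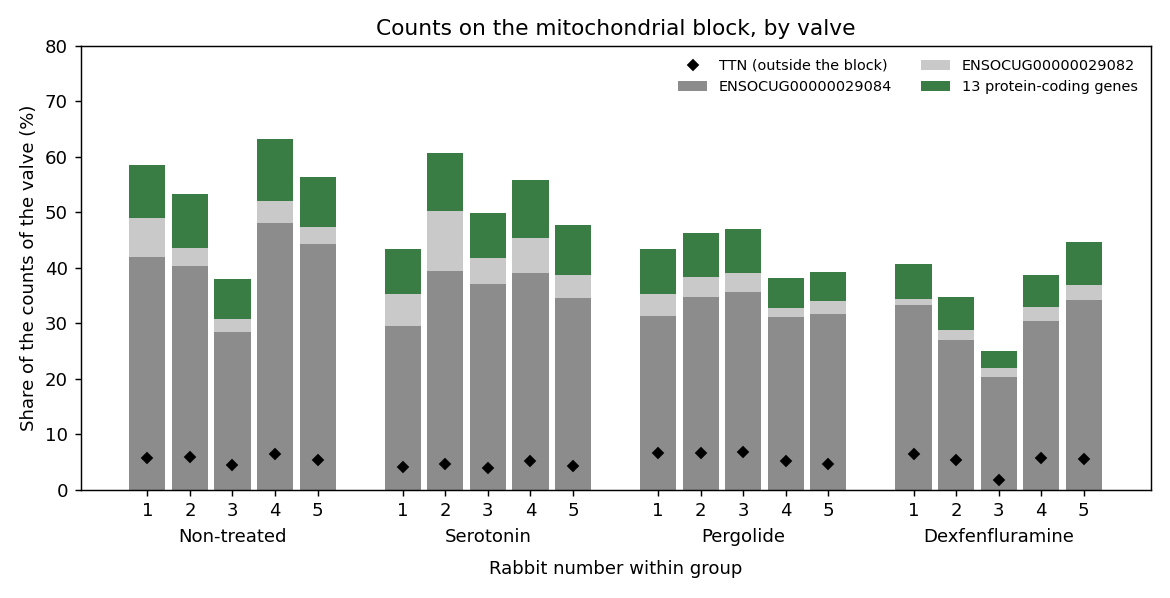
Share of the counts of each valve, in percent, on ENSOCUG00000029084, ENSOCUG00000029082 and the 13 protein-coding genes as stacked bars, with the share on TTN as diamonds, for rabbits 1 to 5 of each group. Non-treated valve 3, at 38.1%, and dexfenfluramine valve 3, at 25.0%, stand lowest in their groups.

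Most of these counts lay on the 2 abundant unnamed genes, which took 44.5 ± 8.25% of all counts without treatment, 42.3 ± 5.80% with serotonin, 35.9 ± 2.71% with pergolide and 31.0 ± 5.86% with dexfenfluramine (mean ± SD, n = 5). These shares, and those of the whole block, are not read as expression alone, because the part of depletion in them was not tested. The 13 protein-coding genes took 9.62, 9.71, 7.25, 11.2 and 9.0% in the non-treated valves. After serotonin their share was 8.01, 10.4, 8.09, 10.4 and 8.98%, which overlapped the non-treated range. The pergolide valves had 8.21, 7.92, 7.90, 5.35 and 5.24%, and numbers 4 and 5 stood below every non-treated valve. In the dexfenfluramine valves the share was 6.35, 5.94, 3.01, 5.78 and 7.65%, below the non-treated range in 4 of 5 valves. Relative to the counts outside the 2 abundant unnamed genes, the mean shares of the 13 genes were 17.4%, 16.2%, 10.9% and 8.53% in the order of groups above, so the order of the means did not rest on the abundant genes. The 22 other unnamed genes took means of 0.0102%, 0.00711%, 0.00737% and 0.00674%.

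No member was called after serotonin, 12 were called lower after pergolide and 21 were called lower after dexfenfluramine, and no member was called higher for any treatment. The counts for the drugs include ENSOCUG00000029114, which passed the filter on low counts without any drug-treated valve, and they were 11 and 20 without it. For serotonin, edgeR, limma-voom and DESeq2 each called 0 of 26, with 3 members at an unadjusted p under 0.05, where 15.8% of all tested genes were and 1.19% were called. For pergolide 24.9% of all tested genes were called and 12.7% were called lower. For dexfenfluramine the percentages were 28.9% and 15.4%. Higher calls made up 1.04%, 12.1% and 13.5% of all tested genes for serotonin, pergolide and dexfenfluramine. The treatments share the non-treated valves, so their results are not independent of each other. The 26 members had a median log2 fold change of -0.40 for serotonin, -0.94 for pergolide and -1.41 for dexfenfluramine, beside 0.01, 0.02 and 0.03 over all tested genes. All 26 had a negative log2 fold change with dexfenfluramine and 25 with pergolide, and ENSOCUG00000029110 was the exception.

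**Figure D2:**
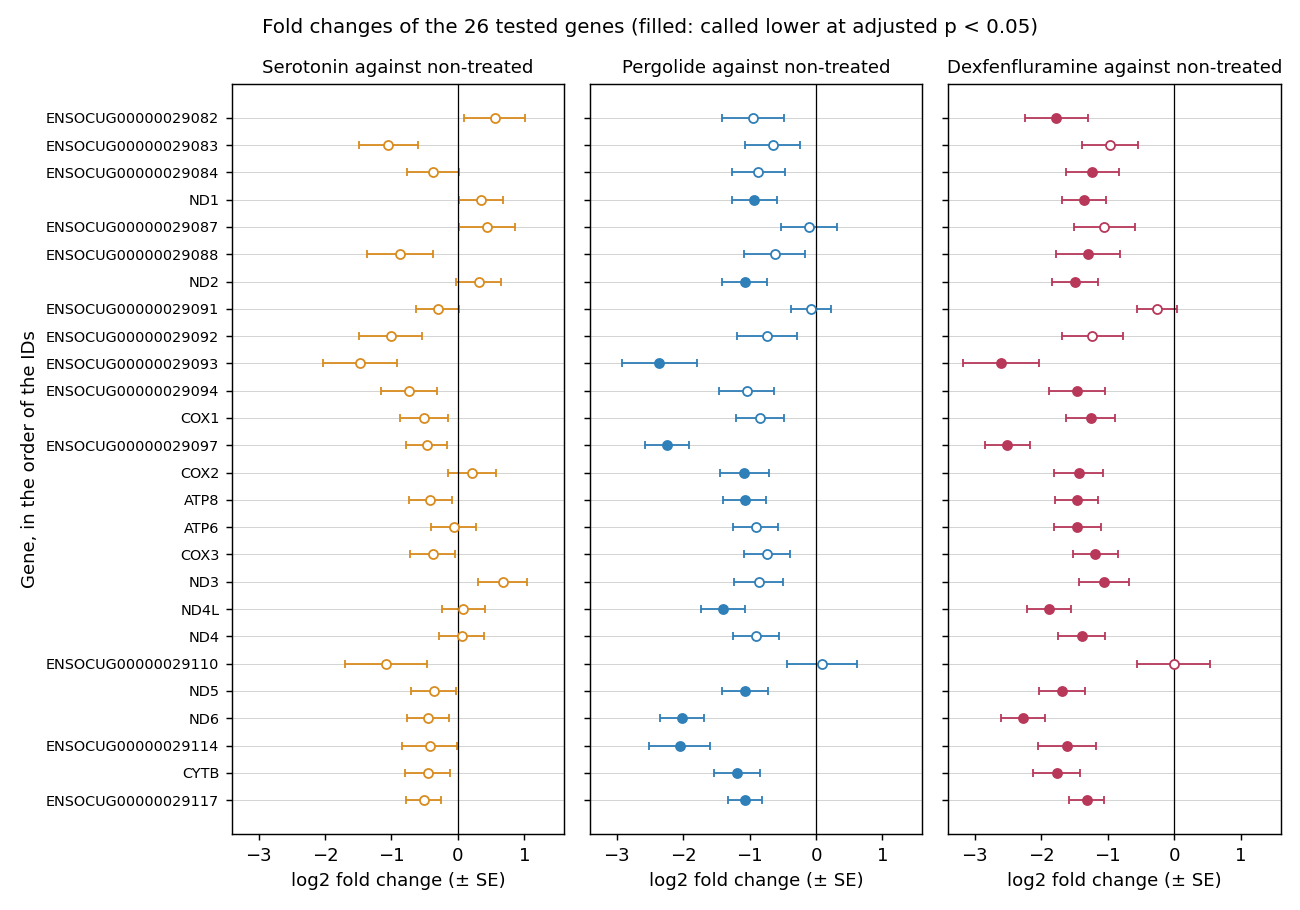
Log2 fold change against non-treated valves, with its standard error, for the 26 members that passed the filter, in the order of the identifiers, 1 panel per treatment. Filled points were called lower, none for serotonin, 12 for pergolide and 21 for dexfenfluramine, with ENSOCUG00000029093, ENSOCUG00000029097, ENSOCUG00000029114 and ND6 farthest to the left for pergolide; the call of ENSOCUG00000029114 is set aside in the text.

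When single valves were left out, the pergolide count moved most. It was 7 without non-treated valve 4, without pergolide valve 4 or without pergolide valve 5, and it was 18 without non-treated valve 3. The dexfenfluramine count lay between 17 and 23 when any valve of either group was left out. The share of all tested genes called in these fits is not set beside the counts. Their movement is therefore not read as particular to the block. With non-treated valve 3 and dexfenfluramine valve 3 both left out, an alternative chosen after these data were seen, 20 members were called lower for pergolide, 22 for dexfenfluramine and 1 for serotonin, beside 15.5%, 15.7% and 2.67% of all genes then tested. With library totals in place of TMM the counts were 6 and 15, where 1.0% and 1.36% of all tested genes were called lower and 26.4% and 57.3% higher, and the median of all tested genes then lay at 0.46 for pergolide and 0.70 for dexfenfluramine, against 0.02 and 0.03 under TMM. With 4 surrogate variables estimated from the data in the model, 10 members were called lower for pergolide, 7 lower for dexfenfluramine and 6 higher for serotonin, beside 6.69%, 5.77% and 1.0% of all tested genes in the same directions.

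The subunits of complex I, the NADH dehydrogenase at the entry of the respiratory chain, are 7 of the 13 proteins. ND6 had the largest decrease of the named genes for both drugs. Its level was 2221, 2005, 1004, 2932 and 1811 CPM in non-treated valves 1 to 5. Serotonin valves had 1186, 2087, 1095, 1728 and 1238 CPM, all but valve 2 below 4 of the 5 non-treated valves. Pergolide valves had 560.3, 569.5, 590.3, 405 and 342 CPM and dexfenfluramine valves had 471, 396, 131, 382 and 686 CPM. Every valve of both drug groups was below the lowest non-treated valve. The log2 fold change of ND6 was -2.02 ± 0.33 (SE, adjusted p = 0.000182) for pergolide and -2.27 ± 0.33 (SE, adjusted p = 5.49e-05) for dexfenfluramine. For serotonin it was -0.44 ± 0.32 (SE, adjusted p = 0.509). ND6 remained called for both drugs whichever of the 10 valves compared was left out.

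ND4L, the smallest complex I subunit encoded in mitochondria, showed the same separation. It had 2153, 1743, 999, 2826 and 1722 CPM in non-treated valves. After pergolide it had 866, 967, 867, 428 and 449 CPM and after dexfenfluramine 476, 509, 200.3, 501 and 872 CPM. No valve of either drug group reached the lowest non-treated valve, number 3. Serotonin valves had 1412, 2495, 1644, 2588 and 1859 CPM, within the non-treated range. The log2 fold change was -1.40 ± 0.33 (SE, adjusted p = 0.00361) for pergolide, -1.88 ± 0.33 (SE, adjusted p = 0.000325) for dexfenfluramine and 0.08 ± 0.32 (SE, adjusted p = 0.933) for serotonin. ND4L and ND4 overlap in the genome, as do ATP8 and ATP6, and a counter that discards reads on overlapping genes would leave such reads out, so the levels of these 4 genes are uncertain.

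ND4L, ND6 and 4 of the unnamed genes had no overlap with the non-treated valves after either drug, and CYTB had none after dexfenfluramine. These are 6 members for pergolide, where 8.34% of all tested genes had every valve lower, and 7 for dexfenfluramine, where 8.71% had. Without ENSOCUG00000029114 they are 5 and 6.

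ND5, which forms part of the proton-pumping arm of complex I, fell from 12532 ± 5973 CPM to 5984 ± 1897 CPM with pergolide and to 3890.4 ± 1518 CPM with dexfenfluramine (SD, n = 5), with log2 fold changes of -1.07 (adjusted p = 0.0274) and -1.69 (adjusted p = 0.00128). ND2 fell from 3625 ± 1502 CPM to 1724 ± 576 CPM and 1289 ± 591 CPM, where the log2 fold changes were -1.07 (adjusted p = 0.0254) and -1.49 (adjusted p = 0.00301). ND1, the first of the named genes in the order of identifiers, fell from 2399 ± 1117 CPM to 1261 ± 387 CPM and 937 ± 403 CPM, with log2 fold changes of -0.93 (adjusted p = 0.0471) and -1.36 (adjusted p = 0.00506). In each of these genes the drug valves overlapped the non-treated valves through non-treated valve 3. ND4 and ND3 were called for dexfenfluramine, at -1.39 (adjusted p = 0.00567) and -1.06 (adjusted p = 0.0376), and missed the threshold for pergolide, at -0.90 (adjusted p = 0.0623) and -0.86 (adjusted p = 0.0943). When each of the 10 valves compared was left out in turn, ND4 was called for dexfenfluramine in 10 of 10 fits and ND3 in 3, and with surrogate variables ND3 turned to 0.03 (adjusted p = 0.957). With serotonin the log2 fold changes of ND1, ND2 and ND3 were 0.35 (adjusted p = 0.643), 0.31 (adjusted p = 0.692) and 0.67 (adjusted p = 0.38), and none was called.

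CYTB encodes cytochrome b, the only mitochondrially encoded subunit of complex III. Its levels were 18190.0, 12414, 6252, 23376 and 13207 CPM in non-treated valves. Pergolide valves had 8286, 7406, 8470.3, 3994 and 3951 CPM and dexfenfluramine valves 5320.4, 3905, 1707, 4472 and 6154 CPM. All dexfenfluramine valves were below the lowest non-treated valve, and 3 pergolide valves were above it. The log2 fold change was -1.19 ± 0.35 (SE, adjusted p = 0.0153) for pergolide and -1.77 ± 0.35 (SE, adjusted p = 0.000907) for dexfenfluramine, and the call held whichever of the 10 valves compared was left out. For serotonin it was -0.46 ± 0.34 (SE, adjusted p = 0.536).

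Complex IV, cytochrome c oxidase, has its catalytic core in COX1, COX2 and COX3. COX1 had 41842, 35580.4, 14712, 54641 and 35945 CPM in non-treated valves. The serotonin valves had 15334, 40170.1, 21110.0, 32226 and 19649.5 CPM, the pergolide valves 24124, 24678, 24776, 14894 and 13622 CPM and the dexfenfluramine valves 19784, 14288, 5351, 15127 and 21932 CPM. All 3 treated groups overlapped the non-treated valves, among which valve 3 was lowest. COX1 fell with dexfenfluramine, with a log2 fold change of -1.26 ± 0.37 (SE, adjusted p = 0.0142), and it was not called for pergolide, at -0.84 ± 0.36 (SE, adjusted p = 0.0969). COX3 also fell with dexfenfluramine alone of the treatments tested against non-treated valves, at -1.19 (adjusted p = 0.0136), and had -0.74 (adjusted p = 0.12) for pergolide. COX2 fell with both, at -1.08 (adjusted p = 0.0356) for pergolide and -1.43 (adjusted p = 0.00643) for dexfenfluramine. The subunits of ATP synthase encoded here are ATP6 and ATP8. ATP8 fell with both drugs, at -1.07 (adjusted p = 0.0199) and -1.47 (adjusted p = 0.00236), whereas ATP6 was called for dexfenfluramine, at -1.45 (adjusted p = 0.0038), and not for pergolide, at -0.91 (adjusted p = 0.0577). Of the protein-coding genes called for pergolide, ND1 and COX2 were called in 4 of the 10 fits that each lacked 1 valve, ND2 and ND5 in 6 and ATP8 in 7, whereas ND6, ND4L and CYTB were called in 10. For dexfenfluramine every protein-coding gene but ND3 was called in 10 of 10. With surrogate variables ND6, ND4L, ND5, CYTB and ATP8 remained called for dexfenfluramine and the other 8 protein-coding genes did not (adjusted p of 0.178 for COX2 to 0.957 for ND3), while for pergolide these 5 and COX2 remained called and ND1 and ND2 did not. Whether a gene called for 1 drug differed between the drugs was tested directly, and no member did, as given below.

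The abundant ENSOCUG00000029084 held 40.7 ± 7.39% of all counts in non-treated valves, and its level was 636765, 490897, 228501, 823611 and 561349 CPM in valves 1 to 5. CPM divides by total counts times the TMM factor, which lay between 0.58 and 1.71, so a level can stand above or below the share of counts. Pergolide valves had 290548, 350887, 360237, 247348 and 252680 CPM and dexfenfluramine valves 285606, 200005, 118535, 246773 and 317751 CPM. Non-treated valve 3 was below every pergolide valve and 3 of the dexfenfluramine valves, and the other 4 non-treated valves were above every drug-treated valve. The log2 fold change was -1.23 ± 0.40 (SE, adjusted p = 0.0259) for dexfenfluramine, which was called in 8 of 10 fits that each lacked 1 valve and was not called with surrogate variables (adjusted p = 0.218), and -0.87 ± 0.40 (SE, adjusted p = 0.116) for pergolide, which was not called. For serotonin it was -0.38 (adjusted p = 0.681). Whether depletion has part in the differences of this gene was not tested.

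ENSOCUG00000029082 varied more within groups. It held 6.94, 3.12, 2.32, 3.88 and 3.0% of the counts of the non-treated valves. The serotonin valves had 5.78, 10.9, 4.61, 6.25 and 4.29%, the pergolide valves 3.91, 3.66, 3.30, 1.68 and 2.26% and the dexfenfluramine valves 1.08, 1.81, 1.65, 2.55 and 2.70%. Non-treated valve 1 and serotonin valve 2 stood highest in their groups. The log2 fold change in CPM was -1.77 ± 0.47 (SE, adjusted p = 0.00796) for dexfenfluramine, -0.95 ± 0.46 (SE, adjusted p = 0.141) for pergolide and 0.55 ± 0.46 (SE, adjusted p = 0.585) for serotonin. With surrogate variables in the model the decrease was not called and the sign turned, to 0.04 for dexfenfluramine (adjusted p = 0.964) and 0.43 for pergolide (adjusted p = 0.355). Against serotonin, every valve of both drug groups was lower, with log2 fold changes of -1.50 (adjusted p = 0.0202) for pergolide and -2.33 (adjusted p = 0.00095) for dexfenfluramine. A part of depletion in these differences was not tested either.

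Among the 22 other unnamed genes the counts were low, between 0 and 145 in any valve. The 11 that did not pass the filter had between 1 and 162 counts in all 20 valves together. Of the 11 that passed, ENSOCUG00000029093, ENSOCUG00000029097 and ENSOCUG00000029117 were called lower for both drugs, and so was ENSOCUG00000029114, whose call is set aside below. These 4 stand at places 13, 17, 34 and 37 of the block, and ND6 stands at place 33. For dexfenfluramine ENSOCUG00000029088 and ENSOCUG00000029094, at places 8 and 14, were called as well, at -1.30 (adjusted p = 0.0482) and -1.47 (adjusted p = 0.0135), and when each valve compared was left out in turn they were called in 3 and 9 of 10 fits.

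ENSOCUG00000029097 had 43.2, 21.9, 12.8, 32.9 and 22.3 CPM in non-treated valves, and its counts ranged from 7 to 120 over the 20 valves. Serotonin valves had 18.4, 18.6, 25.1, 18.2 and 14.0 CPM. After pergolide the levels were 4.97, 5.29, 5.68, 7.20 and 4.26 CPM and after dexfenfluramine 8.38, 4.65, 1.26, 3.16 and 5.60 CPM. All valves of both drug groups lay below all non-treated and all serotonin valves. Its log2 fold change was -2.25 ± 0.33 (SE, adjusted p = 6.74e-05) for pergolide, -2.51 ± 0.34 (SE, adjusted p = 2.29e-05) for dexfenfluramine and -0.47 ± 0.30 (SE, adjusted p = 0.461) for serotonin.

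ENSOCUG00000029093 had 19.8, 31.9, 9.11, 38.5 and 8.50 CPM in non-treated valves, 4.97, 3.07, 6.10, 4.04 and 2.66 CPM after pergolide and 7.30, 2.75, 0, 2.42 and 5.12 CPM after dexfenfluramine. The groups did not overlap, although dexfenfluramine valve 3 had no count at all, which allows a level of up to 3 counts. The log2 fold change was -2.36 ± 0.56 (SE, adjusted p = 0.00462) for pergolide and -2.60 ± 0.58 (SE, adjusted p = 0.00218) for dexfenfluramine. With serotonin it was -1.47 ± 0.55 (SE, adjusted p = 0.196), and serotonin valves ranged from 3.02 to 18.0 CPM. ENSOCUG00000029114, with 1 to 18 counts per valve, had 3.60, 3.25, 2.63, 4.99 and 2.30 CPM in non-treated valves, 1.15, 1.02, 0.631, 0.527 and 0.533 CPM after pergolide and 1.72, 0.688, 0.18, 1.30 and 1.44 CPM after dexfenfluramine. The filter asked for 2.22 CPM before TMM, which 4 non-treated, 2 serotonin and 0 drug-treated valves reached, so the gene could enter the test only where it was high in the other groups and its levels are a description. ENSOCUG00000029117, the last gene of the block, had -1.07 (adjusted p = 0.00523) and -1.32 (adjusted p = 0.00101). The other 5 tested unnamed genes were called for no treatment, with log2 fold changes between -1.23 and -0.01 for dexfenfluramine.

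Since many members were lower after both drugs, the make-up of the mitochondrial messenger RNAs within each valve was examined, which does not depend on how valves are scaled against each other. Each gene was expressed as a percentage of the counts on the 13 protein-coding genes. ND6 made up 1.52, 1.70, 1.73, 1.53 and 1.59% in non-treated valves. It made up 0.736, 0.712, 0.741, 0.953 and 0.818% after pergolide and 0.866, 0.903, 0.747, 0.814 and 0.967% after dexfenfluramine. Every drug-treated valve was below every non-treated valve. After serotonin ND6 made up 1.64, 1.33, 1.32, 1.27 and 1.35%, with 4 of the 5 valves below the non-treated range. ND4L made up 1.53 ± 0.106% in non-treated valves, 1.10 ± 0.0752% after pergolide and 1.09 ± 0.136% after dexfenfluramine (mean ± SD, n = 5), again with no overlap.

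Serotonin valves had another pattern. ND1 made up 2.16, 1.52, 2.12, 2.06 and 1.63% in non-treated valves and 3.58, 3.13, 2.32, 2.44 and 2.78% after serotonin. ND3, a small subunit of complex I, made up 0.277, 0.356, 0.419, 0.327 and 0.263% in non-treated valves and 0.655, 0.728, 0.467, 0.497 and 0.54% after serotonin. ND2 went from 2.90 ± 0.407% to 4.17 ± 0.594% (mean ± SD, n = 5). For these 3 genes every serotonin valve had a larger share than every non-treated valve. COX1, the gene with most counts of the 13, made up 28.7, 30.1, 25.3, 28.5 and 31.5% in non-treated valves and 21.1, 25.6, 25.4, 23.7 and 21.4% after serotonin, where 3 of the 5 valves were below the non-treated range. The pergolide valves had 32.3 ± 1.71% and the dexfenfluramine valves 32.5 ± 2.33% (mean ± SD, n = 5). COX3 was higher in every pergolide valve, at 11.7 ± 0.397% against 9.71 ± 0.73%, and CYTB was lower in every dexfenfluramine valve, at 9.32 ± 0.5% against 11.5 ± 0.861%. Shares of 1 total depend on each other, and they are given without a test.

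**Figure D3:**
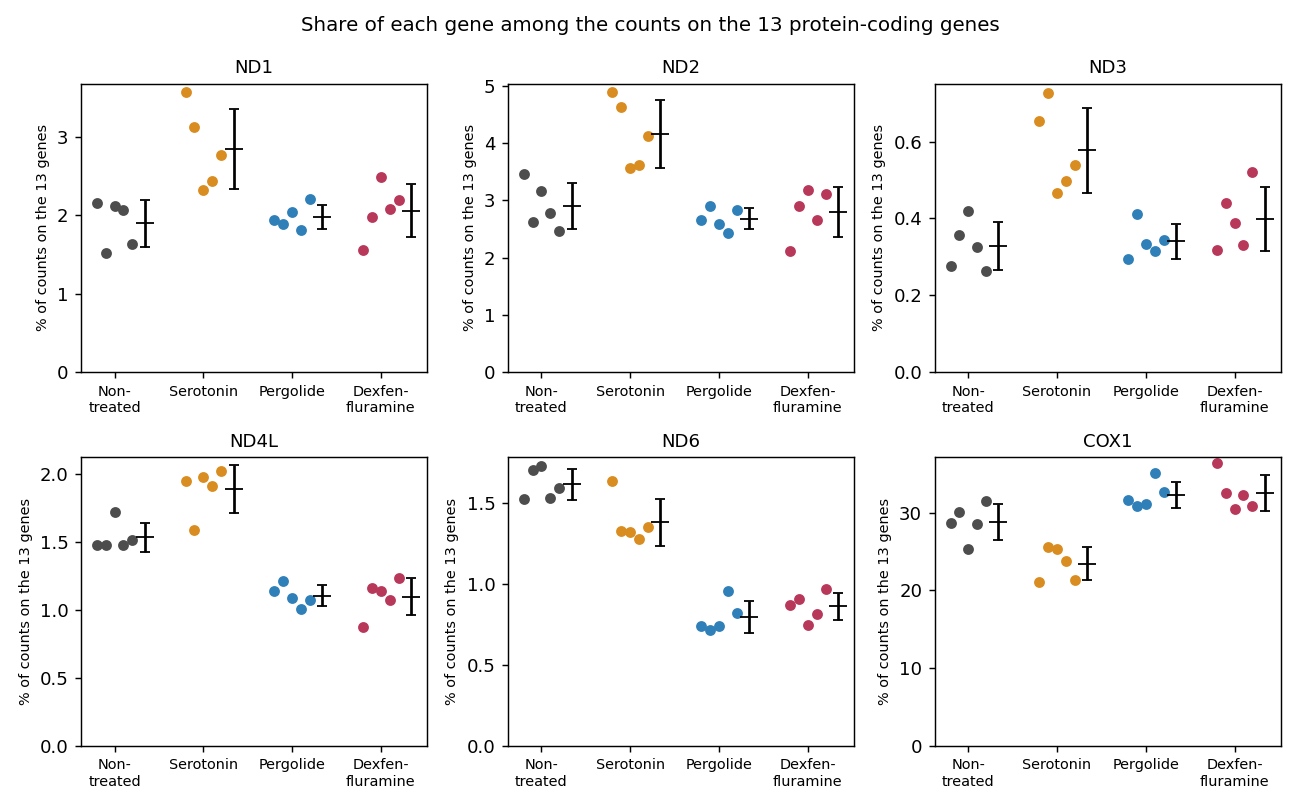
Counts on ND1, ND2, ND3, ND4L, ND6 and COX1 as a percentage of the counts on the 13 protein-coding genes, 1 point per valve, with the mean and SD of each group of 5 beside the points. Serotonin valves lie above all non-treated valves for ND1, ND2 and ND3, and the valves of both drugs lie below them for ND4L and ND6.

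Next, 4 ratios of counts were tested between groups, each by an exact two-sided permutation test of 5 against 5 valves whose smallest possible p is 0.0079, with adjustment over 16 tests. The counts on ND6 per 100 counts on CYTB were 12.2, 16.1, 16.1, 12.5 and 13.7 in non-treated valves. They were 6.76, 7.69, 6.97, 10.1 and 8.64 after pergolide and 8.85, 10.1, 7.69, 8.54 and 11.2 after dexfenfluramine. Both drug groups lay below every non-treated valve. The ratio was 0.57-fold with pergolide and 0.66-fold with dexfenfluramine (exact permutation test, p = 0.0079, adjusted p = 0.042 for each, lower in 5 of 5 valves). Without non-treated valve 2, 3 or 5 the adjusted p of either drug was 0.063 or 0.085, and for pergolide it was also 0.063 when any of its own valves was left out. With serotonin it was 0.98-fold (exact permutation test, p = 0.77). Dexfenfluramine and pergolide valves differed by a log2 ratio of 0.21 (standard error 0.14, exact permutation test, p = 0.19). ND6 thus fell more than CYTB with both drugs. The library kit marks strand, but how strand was used in counting is not given in the sources used here, and if it was ignored reads of ND6 and of the RNA from the other strand cannot be told apart.

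The counts on ENSOCUG00000029082 per 100 counts on ENSOCUG00000029084 were 16.5, 7.73, 8.13, 8.07 and 6.76 in non-treated valves and 19.6, 27.7, 12.4, 16.0 and 12.4 after serotonin. Non-treated valve 1 lay inside the serotonin range and the other 4 below it. The ratio of ENSOCUG00000029084 to ENSOCUG00000029082 was 0.53-fold after serotonin (exact permutation test, p = 0.032, adjusted p = 0.13), so this difference did not pass after adjustment. Without non-treated valve 1 it did (adjusted p = 0.032). For pergolide the ratio was 1.04-fold (exact permutation test, p = 0.88) and for dexfenfluramine 1.37-fold (exact permutation test, p = 0.35). If both genes are ribosomal transcripts, the ratio also depends on how evenly depletion removed them, which was not tested.

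A messenger RNA was also set against the most abundant gene. COX1 had 6.57, 7.25, 6.44, 6.63 and 6.40 counts per 100 counts on ENSOCUG00000029084 in non-treated valves, and 6.93, 7.14, 4.51, 6.13 and 6.90 after dexfenfluramine. The ratio was 0.90-fold with serotonin, 1.00-fold with pergolide and 0.94-fold with dexfenfluramine (exact permutation tests, p = 0.063, 1.0 and 0.66, adjusted p = 0.20, 1.0 and 0.88). A difference was therefore not detected, and the standard errors of the log2 ratios were 0.06, 0.11 and 0.13. Without serotonin valve 2 the serotonin difference passed (adjusted p = 0.032). The limit on depletion given above applies to the denominator of this ratio.

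**Figure D4:**
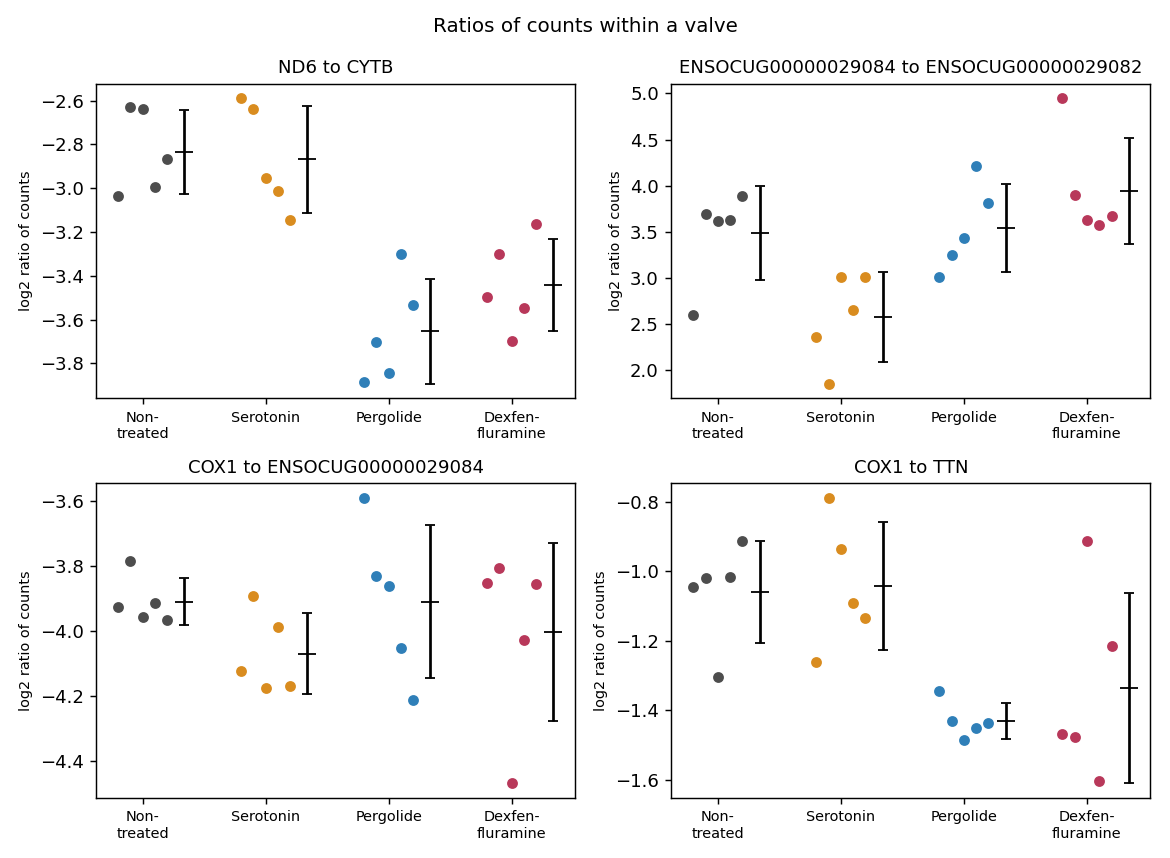
Log2 ratios of counts within each valve for ND6 to CYTB, ENSOCUG00000029084 to ENSOCUG00000029082, COX1 to ENSOCUG00000029084 and COX1 to TTN, 1 point per valve, with mean and SD of each group of 5; the axes do not start at 0. Both drug groups lie below all non-treated valves for ND6 to CYTB, and pergolide valves do for COX1 to TTN.

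The drugs were also compared with serotonin, which asks whether the decreases set them apart from the other agent. Against serotonin valves, 10 members were called lower after pergolide and 15 after dexfenfluramine, and 0 were called higher by edgeR. The 10 include ENSOCUG00000029114 and the 15 include ENSOCUG00000029087, which passed the filter on low counts without any pergolide or any dexfenfluramine valve, respectively. Both calls are set aside. In these comparisons 27.5% and 30.3% of all tested genes were called, 15.1% and 16.4% lower, 12.4% and 13.9% higher. Every valve was lower for 8 members with pergolide and for 13 with dexfenfluramine, beside 11.9% and 12.2% of all tested genes. The 13 include ENSOCUG00000029087, which is set aside here as well. ND6 had a log2 fold change of -1.57 ± 0.32 (SE, adjusted p = 0.000978) for pergolide and -1.83 ± 0.33 (SE, adjusted p = 0.000227) for dexfenfluramine. ND4L had -1.48 ± 0.33 (SE, adjusted p = 0.00175) and -1.97 ± 0.33 (SE, adjusted p = 0.000125). COX1 was called in neither, at -0.33 (adjusted p = 0.535) and -0.75 (adjusted p = 0.126). Both comparisons share the serotonin valves, and the drug valves are those of the comparisons above.

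Between the drugs no member was called, with 0 of 8683 genes called by edgeR (0.00%), 0 members called by limma-voom and DESeq2, and 1 member at an unadjusted p under 0.05, ENSOCUG00000029087, where 7.07% of all tested genes were. That gene passed the filter on low counts without any dexfenfluramine valve, so its value is a description. The 13 protein-coding genes had log2 fold changes of dexfenfluramine against pergolide between -0.62 and -0.20, all below 0, with standard errors of 0.32 to 0.37. ND6 had -0.25 ± 0.32 (SE, adjusted p = 0.867). ND5 had -0.62 ± 0.34 (SE, adjusted p = 0.737), the farthest from 0 of the named genes. The doses of the drugs differed, and a p above the threshold does not show that they acted alike.

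The relation to TTN was examined because titin, the giant protein of the sarcomere, comes from muscle cells and its gene was the most counted one outside the block. TTN took 5.70, 5.94, 4.54, 6.45 and 5.35% of the counts in non-treated valves. It took 4.06, 4.58, 3.93, 5.26 and 4.21% after serotonin and 6.61, 6.58, 6.88, 5.12 and 4.63% after pergolide. After dexfenfluramine it took 6.39, 5.39, 1.73, 5.66 and 5.50%. Dexfenfluramine valve 3 had the smallest share of TTN as it had of the block. TTN was not called for any treatment, with log2 fold changes of -0.53 (adjusted p = 0.501) for serotonin, -0.44 (adjusted p = 0.41) for pergolide and -0.89 (adjusted p = 0.0804) for dexfenfluramine.

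Across the valves of a group, the protein-coding genes and ENSOCUG00000029084 varied with TTN, and 2 of them were tested. After subtraction of group means, log2 CPM of COX1 and of TTN had a Pearson r of 0.96 and a Spearman rho of 0.97 over the 20 valves (permutation test with 100000 resamples within groups, p = 1e-05 for each, the smallest that these can give). ENSOCUG00000029084 and TTN had r = 0.90 and rho = 0.96 (permutation test, p = 1e-05 for each). The adjusted p over these 2 relations was 1e-05. Without dexfenfluramine valve 3 and non-treated valve 4, the farthest from the median of TTN, r was 0.97 for COX1 and 0.92 for ENSOCUG00000029084. With scaling by genes outside the block, r was 0.96 and 0.90. All CPM values share the scaling of their library, and the points are not adjusted for it beyond that alternative.

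**Figure D5:**
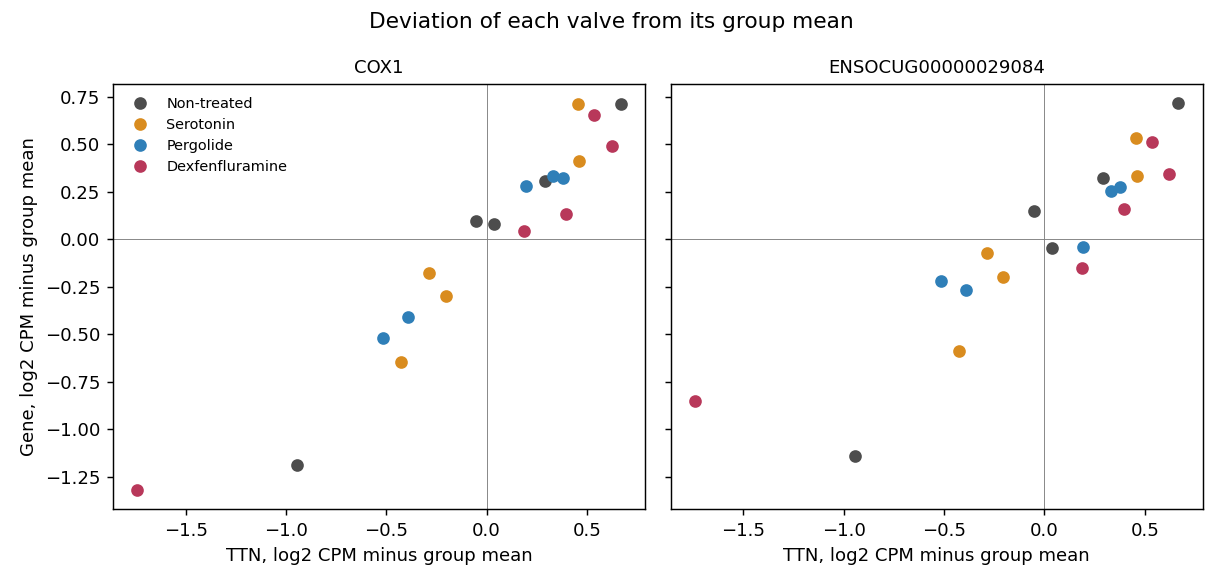
Deviation of log2 CPM from the group mean for TTN (horizontal) and for COX1 or ENSOCUG00000029084 (vertical), 1 point per valve and 1 colour per group. The points follow a rising line, with r = 0.96 for COX1 and r = 0.90 for ENSOCUG00000029084, and dexfenfluramine valve 3 lies at the left end.

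For the 13 protein-coding genes, r with TTN under that scaling ranged from 0.85 to 0.96 with a median of 0.91. The highest were ND6 and COX1, both at 0.96, and the lowest was ND1 at 0.85. The 11 other unnamed genes that passed the filter ranged from -0.08, for ENSOCUG00000029087, to 0.88, for ENSOCUG00000029093, with a median of 0.73, and ENSOCUG00000029082 had 0.65. As a description, the 15 cardiomyocyte genes other than TTN had a median r of 0.94 and the 8656 tested genes outside the block had a median of -0.08.

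The ratio of each gene to TTN within a valve describes what remains beside this shared movement. COX1 had 48.5, 49.3, 40.5, 49.5 and 53.1 counts per 100 counts on TTN in non-treated valves. It had 39.4, 37.1, 35.7, 36.6 and 36.9 after pergolide and 36.1, 35.9, 53.1, 32.9 and 43.0 after dexfenfluramine. Every pergolide valve was below every non-treated valve, whereas dexfenfluramine valve 3 was close to the highest of them. The ratio was 0.77-fold with pergolide (exact permutation test, p = 0.0079, adjusted p = 0.042, lower in 5 of 5 valves). The call was lost when non-treated valve 2, 3 or 5 or any pergolide valve was left out (adjusted p = 0.063 or 0.085). With dexfenfluramine it was 0.83-fold (exact permutation test, p = 0.079, adjusted p = 0.21) and with serotonin 1.01-fold (exact permutation test, p = 0.88). Without dexfenfluramine valve 3 the log2 difference for dexfenfluramine was -0.38 (exact permutation test, adjusted p = 0.095), beside -0.28 with it and -0.37 for pergolide.

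Of the 13 protein-coding genes, 10 had a lower ratio to TTN in every pergolide valve than in every non-treated valve, where 0.726% of all tested genes did. With dexfenfluramine 3 did, ND6, ND4L and CYTB, beside 0.173% of all tested genes. Without dexfenfluramine valve 3, a choice made after its ratio was seen, 5 did, beside 0.576% of all tested genes, and the median log2 difference over the 13 genes was -0.61. After serotonin 7 had a higher ratio in every valve, among them ND1, ND2 and ND3, beside 1.21% of all tested genes. The median log2 difference in this ratio over the 13 genes was -0.59 for pergolide, -0.43 for dexfenfluramine and 0.49 for serotonin, while over all tested genes it was 0.43, 1.05 and 0.51. TTN is in the denominator for every gene, so the counts describe these libraries and are not independent of each other.

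With the log2 CPM of TTN as a covariate of the fit, an alternative chosen after these data were seen, 16 members were called lower for pergolide, 11 lower for dexfenfluramine and 5 higher for serotonin, beside 13.8%, 9.86% and 1.85% of all tested genes in the same directions. ND6 then had log2 fold changes of -1.58 (adjusted p = 3.93e-09) for pergolide and -1.43 (adjusted p = 2.45e-07) for dexfenfluramine, and ND4L had -1.02 (adjusted p = 1.85e-05) and -1.04 (adjusted p = 0.00015). COX1 had -0.36 (adjusted p = 0.0245) and -0.29 (adjusted p = 0.137). The 5 called higher for serotonin were ND1, ND2, COX2, ND3 and ND4L, of which ND3 had 1.13 (adjusted p = 0.0164). Thus ND6 and ND4L were called lower for both drugs with and without TTN in the model.

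Cardiomyocyte markers were examined beside the block. Markers of every cell type could be counted only where they carry a symbol, as 3456 of the 8683 tested genes do. Symbols came from the study annotation, which covers genes selected as changed in these valves. The counts of called markers below are therefore not independent evidence of a direction, also where they stand beside the share over all tested genes. The 16 genes with a symbol had a median log2 fold change of -0.52 for serotonin, -0.62 for pergolide and -0.98 for dexfenfluramine. They had a summed level of 50991 to 156080 CPM in non-treated valves (median 110020). They had 55271 to 107800 after serotonin (median 66037), 49554 to 95411 after pergolide (median 84638) and 12936 to 73361 after dexfenfluramine (median 62554), with no marker at 0 in any group. Of the 16 genes, 0, 1 and 7 were called lower for serotonin, pergolide and dexfenfluramine. Over all tested genes 12.7% were called lower for pergolide and 15.4% for dexfenfluramine, so the pergolide count is not above that share. Higher calls made up 1.04%, 12.1% and 13.5% of all tested genes for serotonin, pergolide and dexfenfluramine. The troponin gene TNNT2 was the one called for pergolide, at -2.27 (adjusted p = 0.00109). Genes of valvular interstitial cells and matrix went the other way, with 7 of 11 called higher for each drug and 1 for serotonin, and all 4 adipocyte genes were called higher for pergolide. Both endothelial genes were called lower for pergolide, and of 3 smooth muscle genes 1 was called higher for each drug and 1 lower for dexfenfluramine. How far a changed mix of cells has part in the decrease of the mitochondrial transcripts was not tested beyond the TTN values above.

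The nuclear partners of these genes were counted from lists that were drawn up with earlier results of these data known. Symbols came from the study annotation, which covers genes selected as changed in these valves, so the counts are not independent evidence of a direction. Of 16 tested nuclear subunits of complex I, 3 were called lower for pergolide and 9 for dexfenfluramine, with medians of -0.30 and -0.65. Over all tested genes 12.7% were called lower for pergolide and 15.4% for dexfenfluramine, and the pergolide counts here and for complex V are near that share. NDUFB3 and NDUFB6, accessory subunits of its membrane arm, had -1.47 (adjusted p = 0.00125) and -1.14 (adjusted p = 0.00176) for dexfenfluramine. Of 4 subunits of complex III, 0 and 3 were called lower, UQCRB at -1.30 (adjusted p = 0.00497) and UQCRQ at -0.90 (adjusted p = 0.0311) among them. Complex IV had 0 and 2 of 4, which were COX7B at -1.21 (adjusted p = 0.00399) and COX6C at -1.0 (adjusted p = 0.014). Complex V had 1 and 3 of 7, with ATP5J at -1.14 (adjusted p = 0.00478) and ATP5G2 at -0.80 (adjusted p = 0.00665) for dexfenfluramine. None of these genes was called higher for either drug, and none was called for serotonin.

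Factors that maintain and transcribe mitochondrial DNA were represented by 3 tested genes, of which 2 were called lower for pergolide and 3 for dexfenfluramine. Over all tested genes 12.7% and 15.4% were called lower for these drugs, and 12.1% and 13.5% higher. MTERF3, of the family of mitochondrial transcription termination factors, had -0.80 (adjusted p = 0.0178) for pergolide and -1.38 (adjusted p = 0.000356) for dexfenfluramine. SSBP1, which coats single-stranded DNA during replication, had -0.41 (adjusted p = 0.0231) and -0.60 (adjusted p = 0.00153). TFB2M, needed to start mitochondrial transcription, was called for dexfenfluramine, at -0.86 (adjusted p = 0.0195). Among 3 genes of mitochondrial RNA handling, GRSF1, an RNA-binding protein of mitochondrial RNA granules, fell with dexfenfluramine, at -0.40 (adjusted p = 0.00853), PTCD3 rose with both drugs, at 0.86 (adjusted p = 0.0216) and 0.76 (adjusted p = 0.0375), and LRPPRC, which stabilizes mitochondrial messenger RNAs, was called for neither. Of 5 regulators of mitochondrial biogenesis, 1 was called lower for pergolide and 2 for dexfenfluramine, and the pergolide count is near the share over all tested genes. PPARGC1A, a coactivator that drives the expression of mitochondrial genes, had -0.83 (adjusted p = 0.04997) and -1.21 (adjusted p = 0.00549), and its relative PPARGC1B had -1.02 (adjusted p = 0.0183) for dexfenfluramine. GABPB1, a subunit of a transcription factor of nuclear mitochondrial genes, was called higher for dexfenfluramine, at 0.32 (adjusted p = 0.0474). No gene of these 3 lists was called for serotonin.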

How the data were processed

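The deposited table gives raw read counts per gene, made by the authors from stranded, ribosomal RNA-depleted libraries of 20 valves with TopHat2 (2.1.1), Picard and HTSeq, per the labels. The annotation release, the treatment of reads with several matches and the strand setting are not given in the sources used here. Groups came from the sample titles. Counts were normalized by TMM and tested with edgeR 4.0.16 (R 4.3.3) in 1 fit of 4 groups after filterByExpr, with Benjamini-Hochberg adjustment over 8683 genes. On simulated data 86 of 100 genes changed 2-fold and 100 of 100 changed 4-fold were recovered, and 6 unchanged genes were called. The authors used limma-voom with svaseq and RUVr factors; limma 3.58.1, sva 3.50.0 (4 surrogate variables) and DESeq2 1.42.0 were alternatives, and RUVr was not run. Ratios used log2 counts with 0.5 added, and correlations log2 CPM with a prior count of 2. Members and lists were chosen with earlier results of these data known. Every member is named or counted; outside the block TTN, the 2 genes of smallest p for dexfenfluramine in each list and genes that a small count singles out are named. Rabbits were separate animals. The sequences and lengths of these genes were not used here, so levels were not compared between genes.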

Additional observations from a re-analysis of the deposited data

Results flagged for a closer look

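Among 96 groups of 5 valves examined, 3 had a valve that stood farther from its nearest neighbour, relative to the range of its group, than Dixon's critical value at 95% allows, and chance gives about 1 in 20 groups. The log2 ratio of counts on ENSOCUG00000029084 to counts on ENSOCUG00000029082 was 2.60 in non-treated valve 1, far from the other non-treated valves at 3.62 to 3.89. The same ratio was 4.95 in dexfenfluramine valve 1, where the other valves of the group had 3.58 to 3.90. The log2 ratio of COX1 to ENSOCUG00000029084 was -3.79 in non-treated valve 2, beside -3.97 to -3.91 in the others.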

How the results depend on the processing

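Several counts of calls moved with the covariates, the scaling or the valves included. With 4 surrogate variables 6 members were called higher for serotonin and 7 lower for dexfenfluramine. With TTN as a covariate 5 were called higher for serotonin, 11 lower for dexfenfluramine, 17 lower for pergolide against serotonin and 1 higher for dexfenfluramine against serotonin. For the comparisons with serotonin, 18% of all tested genes were then called lower for pergolide and 15.1% higher for dexfenfluramine. Library totals gave 6 lower for pergolide and 1 higher for each drug against serotonin. Against serotonin, 15.7% of all tested genes were then called higher for pergolide and 41.9% for dexfenfluramine. Without non-treated valve 3 and dexfenfluramine valve 3 the counts were 1 lower for serotonin and 20 lower for pergolide. The cause was not tested.

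Some fold changes of members that were not called for serotonin changed sign. With surrogate variables they became 0.21 for ENSOCUG00000029084, 0.018 for COX1, 0.091 for COX3, 0.20 for ND5 and 0.11 for CYTB. With TTN as a covariate they became 0.042 for ENSOCUG00000029084, 0.025 for COX1, 0.046 for ATP8, 0.15 for COX3, 0.17 for ND5, 0.063 for ND6 and 0.089 for CYTB. With surrogate variables ENSOCUG00000029082 also turned to 0.43 for pergolide and 0.037 for dexfenfluramine, and ND3 to 0.032 for dexfenfluramine, and under library totals TTN turned to 0.093 for pergolide. Relative to counts outside the 2 abundant unnamed genes, the share of the 13 protein-coding genes was 17.4%, 16.2%, 10.9% and 8.53% in non-treated, serotonin, pergolide and dexfenfluramine valves.

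When each valve of the groups compared was left out in turn, the members called lower numbered 7 to 18 for pergolide and 17 to 23 for dexfenfluramine. As above, these counts stand without the share of all tested genes in the same fits. The log2 ratio of ND6 to CYTB lay between -0.105 and 0.035 for serotonin, -0.91 and -0.76 for pergolide, and -0.68 and -0.55 for dexfenfluramine. With 4 valves in a group an exact test has fewer arrangements, and the ratios of ND6 to CYTB and of COX1 to TTN lost their calls in the cases given with them. The log2 ratio of ENSOCUG00000029084 to ENSOCUG00000029082 lay between -1.13 and -0.73 for serotonin, -0.16 and 0.19 for pergolide, and 0.21 and 0.56 for dexfenfluramine. That of COX1 to ENSOCUG00000029084 lay between -0.20 and -0.13 for serotonin, -0.080 and 0.076 for pergolide, -0.14 and 0.024 for dexfenfluramine, and -0.17 and 0.024 between the drugs. That of COX1 to TTN lay between -0.046 and 0.072 for serotonin, -0.43 and -0.33 for pergolide, -0.38 and -0.21 for dexfenfluramine, and -0.012 and 0.16 between the drugs.

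With the rabbit number as a replicate block, 9 members were called lower for pergolide, 20 for dexfenfluramine and 0 for serotonin. The share of all tested genes called with this block is not set beside these counts, so they are not read as particular to the members. Valves that share a number correlated at -0.34 to 0.49, and 5 of 20 correlated best with their own number, so the numbers were not taken as pairs. Low counts limit the 22 other unnamed genes, and 14 members were called lower for dexfenfluramine when at least 10 counts were required in every valve. Fewer members pass that filter. Among those it removed were ENSOCUG00000029093, ENSOCUG00000029097 and ENSOCUG00000029117, whose lowest counts were 0, 7 and 8. The 14 are therefore not a weakening of the main count, and the share of all tested genes is not set beside them.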
